A study of Mus musculus with 2 samples.

Results

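Exon peaks are the stretches of open chromatin in LβT2 cells that were found inside exons of protein-coding genes and away from promoters. A member was chosen by its measured position: its summit, the base with the most tags, lay on chromosomes 1 to 19 in an exon of a protein-coding transcript and more than 3 kb from every transcription start site (TSS) of the GENCODE vM21 annotation on GRCm38. Replicate 1 had 374 members among 52934 peaks on these chromosomes, or 0.707%, and replicate 2 had 411 among 59073, or 0.696%. The whole lists held 58519 and 64984 peaks.

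The peaks came from an assay for transposase-accessible chromatin with sequencing (ATAC-seq), in which a transposase cuts DNA that nucleosomes leave exposed. LβT2 is an immortalized mouse line of pituitary gonadotrope cells, the cells that make luteinizing hormone and follicle-stimulating hormone. Both replicates, at passage 21 with 4500 cells each, received 4 pulses of 2 nM gonadotropin-releasing hormone (GnRH), spaced 2 h apart, and were harvested 45 min after the last. There was no untreated sample, so nothing here separates GnRH from no GnRH, and no test over samples is possible. The study speaks of independent samples and libraries, but nothing states that the replicates came from separate cultures. All samples came from 1 line, so the lists describe that line and not gonadotropes in the pituitary.

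Tags, the extended reads over a base, were solved from the deposited fold enrichment and p-value of each peak. The background implied by these values was 3.05 tags in replicate 1 and 3.54 in replicate 2. Such a background depends on the genome size given to the peak caller, and the methods name a fly setting for these mouse data. Fold, q and the detection threshold depend on it too, and it was not re-estimated here. The weakest member rested on 10 and 11 tags. At such numbers an exon without a peak is only an exon where none was detectable. Summits lay within 1 kb of a TSS for 4 of 10 gonadotrope marker genes in replicate 1 and for 7 in replicate 2, among them Lhb, Cga and Gnrhr in both. None lay there for 7 markers of other pituitary lineages in either replicate. Of the gonadotrope markers, Fshb, Pitx1 and Lhx3 lacked such a summit in both lists. Nr5a1, Foxl2 and Gata2 had one in replicate 2 alone.

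Most open chromatin of a cell lies at promoters and at distal enhancers, where transcription factors displace nucleosomes. Exons are different sequence: they carry codons or the untranslated parts of the message, they are conserved for that reason, and many also belong to gene families or processed copies, so that a short read can match several places. An open exon can hold a binding site inside a coding sequence, an enhancer, an alternative promoter or the end of a gene.

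The matches for 2 factors serve here to show what such sequence looks like. CTCF is a zinc finger protein that binds insulators and the anchors of chromatin loops, and SF1 (the product of Nr5a1) is a nuclear receptor needed for gonadotropes. Exon loci whose summits had a match in both replicates, with the 50 bp at the summit found at 1 place of the genome, are printed with the core of the match in capitals, 5′ to 3′ on the strand that reads the core, with GRCm38 coordinates. All 7 stretches lay wholly inside the exon. The SF1 core was CAAGGTCA on either strand, and CTCF was searched by its core alone. The SF1 loci were chosen after their values were seen.
CTCF in coding exon 4 of Synpo2l, minus strand, chr14:20661153-20661182: ttcatgcagCCACTAGGGGGCaggagttac
CTCF in 3′ UTR exon 23 of Slc4a3, minus strand, chr1:75559667-75559696: caaaaaccaCCACCAGAGGGCtacacacgg
SF1 in 3′ UTR exon 8 of Hjurp, plus strand, chr1:88264607-88264636: tccaaggagtcCAAGGTCAgcccaagctat
SF1 in 3′ UTR exon 3 of D1Ertd622e, plus strand, chr1:97634234-97634263: gtctcagggctCAAGGTCAgaattcaaagc
SF1 in coding exon 7 of Vsig8, plus strand, chr1:172563209-172563238: cccgtctacatCAAGGTCAagagcgcggag
SF1 in 3′ UTR exon 12 of Galnt6, minus strand, chr15:100692230-100692259: ggtgttttgtcCAAGGTCAcctggcaagat
SF1 in coding exon 3 of Eva1a, minus strand, chr6:82091840-82091869: accaaggcggcCAAGGTCAggaacaggcca

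The Synpo2l match lay 15 bp from the summit of replicate 1 and 19 bp from that of replicate 2, and the Slc4a3 match 26 and 23 bp away. The SF1 matches were 4 to 77 bp from the summits. A match is a description of the letters and not a measurement of binding.

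With multi-copy summits counted, exons held fewer peaks for their length than the genome around them. The bases that satisfy the rule came to 39745256, or 1.66% of chromosomes 1 to 19. Exon peaks were found at 9.41 per Mb of these bases in replicate 1 and at 10.3 in replicate 2. The density was 14.9 and 16.5 per Mb in introns, 23.1 and 24.2 outside coding genes, and 33.4 and 42.5 within 3 kb of a TSS. The share of peaks in exons was therefore 0.426 times the share of bases in replicate 1 and 0.419 times that share in replicate 2, with 0.423 ± 0.0046 as mean (SD, n = 2). In each replicate the exon density was below that of the other 3 classes. These densities count multi-copy summits, which made up 51.9% and 47.4% of exon peaks. They made up 64.3% and 58.6% of intron peaks and 78.6% and 76.3% of those outside coding genes. Among single-copy summits, and set against single-copy bases, the ratio was 0.547 and 0.503. Of all single-copy peaks, 8391 of 18589 and 11939 of 24262 lay within 3 kb of a TSS. The ratio is set against all of these peaks, those near a TSS included. Single-copy peaks numbered 180 and 216 in exons, 3766 and 4847 in introns, and 6252 and 7260 outside coding genes. These classes hold 1.66%, 29.6% and 52.8% of the bases. Densities over single-copy bases were not computed for introns or outside coding genes, so the order of these classes is shown only with multi-copy summits counted.

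**Figure D1:**
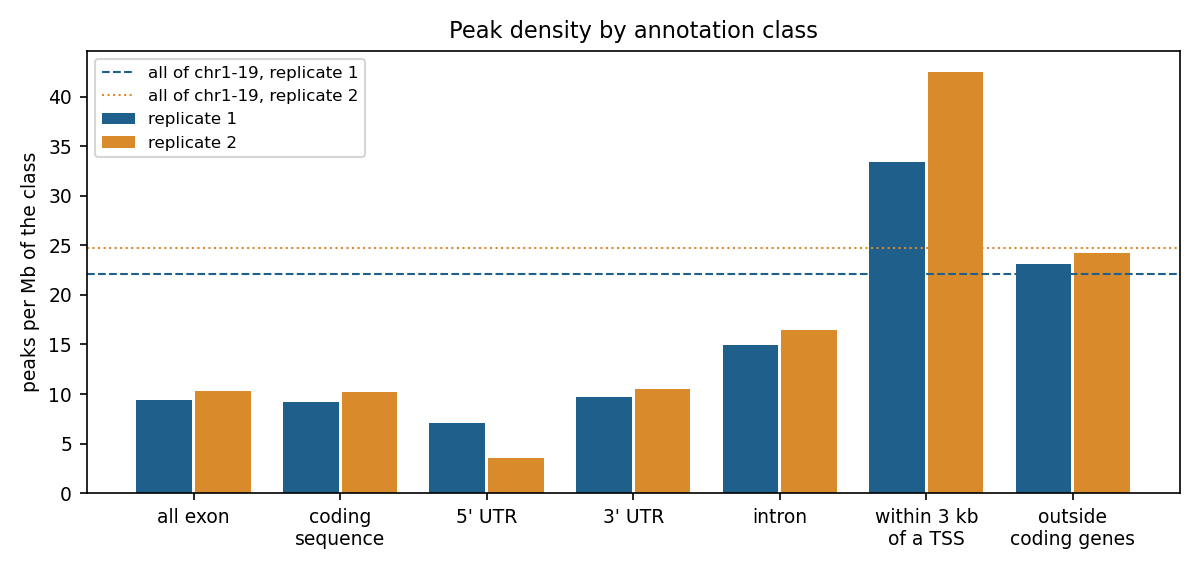
Peaks per Mb of each annotation class in both replicates, with dashed and dotted lines at the density over chromosomes 1 to 19. With multi-copy summits counted, exon peaks stood at 9.41 and 10.3 per Mb, below introns at 14.9 and 16.5, and the 5′ UTR bars rest on 2 and 1 peaks.

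Coding sequence held 159 members in replicate 1 (42.5%) while replicate 2 had 178 there (43.3%), and the mean share was 42.9% ± 0.563 (SD, n = 2). The 3′ UTR, the part of the message after the stop codon, held 213 (57%) and 232 (56.4%). Only 2 and 1 members lay in a 5′ UTR, where the rule leaves 284487 bases. Per Mb, coding sequence had 9.15 and 10.2 peaks and 3′ UTR had 9.65 and 10.5. The difference within a replicate was under the spread between replicates. Among single-copy summits over single-copy bases the order turned, with 5.36 and 6.92 peaks per Mb in coding sequence and 4.28 and 4.76 in 3′ UTR.

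Exon peaks had the same median strength as all peaks, and a smaller share of them reached a high score than of all peaks. Their median fold enrichment was 3.70 in replicate 1 and 3.75 in replicate 2, which were also the medians in introns, outside coding genes and over all peaks. A −log10 q of at least 10 was reached by 30 members (8.02%, against 11.2% of all peaks) and by 54 members (13.1%, against 20.4%). In introns these shares were 8.99% and 15.5%, and within 3 kb of a TSS 21.9% and 39.5%. The 3 members nearest inside the 3 kb distance were in Prr36 (3013 bp from a TSS, −log10 q 3.49), Dst (3017 bp, 12) and Sf3b5 (3038 bp, 4.80) in replicate 1, and in Lrrc74b (3053 bp, 1.43), Sf3b5 (3059 bp, 16.1) and Pes1 (3088 bp, 8.44) in replicate 2. Nearest outside it were peaks in exons of Opn4 (2980 bp, 1.79), Gm2832 (2974 bp, 4.13) and Gm3127 (2967 bp, 9.36) in replicate 1, and of Prdm9 (2981 bp, 10.0), Olfr646 (2975 bp, 4.19) and Tmem267 (2970 bp, 3.57) in replicate 2. Members just inside and peaks just outside the distance covered a similar range.

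The median member lay 7.77 kb from the nearest TSS in replicate 1 and 7.62 kb in replicate 2, and the farthest 124 and 152 kb. The distance depends on the annotation: 14 members (3.74%) and 23 members (5.60%) were within 3 kb of a TSS of the RefSeq annotation. The peak lay wholly in exon sequence for 225 members (60.2%) and 244 members (59.4%), while the others ran on into an intron or past the end of the gene.

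Long and terminal exons held a larger share of the coding members than of the coding bases. Exons of 1 kb or more held 54.1% and 45.5% of the coding members of replicates 1 and 2, against 24.7% of the coding bases under the rule. The last exon held 52.2% and 46.6%, against 22.4% of the bases. Summits within 50 bp of an exon edge made up 30.2% and 33.7%, against 50.1% of the bases. The gaps were smaller among single-copy coding members, of which 36.0% and 33.9% were in exons of 1 kb or more, 34.8% in each replicate were in the last exon, and 40.4% and 38.3% were within 50 bp of an edge. Of the 3′ UTR members, 39.0% and 35.3% had their summit within 500 bp of the end of the transcript, against 28.4% of 3′ UTR bases. Among single-copy members these shares were 28.9% and 22.0%.

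**Figure D2:**
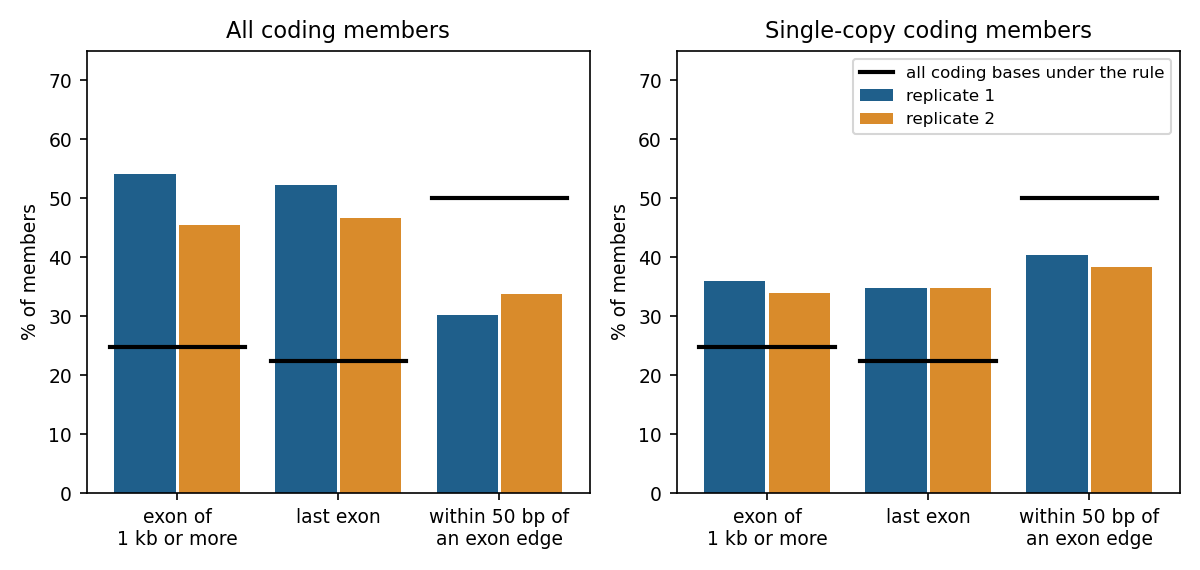
Share of coding members in exons of 1 kb or more, in the last exon and within 50 bp of an exon edge, for all coding members (left) and single-copy ones (right), with black lines for all coding bases under the rule. Members exceeded the lines for long and last exons and fell under the line for exon edges, by less among single-copy members.

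Many exon peaks lay in sequence that the genome holds more than once. Multi-copy here means that the 50 bp around a summit could be read at more than 1 place, counting exact matches on both strands. A copy that differs at any of these bases was not counted, so a single-copy summit can still have near-identical copies. Multi-copy summits were found for 194 members of replicate 1 (51.9%, against 64.9% of all peaks) and for 195 of replicate 2 (47.4%, against 58.9%). Of the exon bases under the rule, 4.66% were multi-copy. With 200 bp in place of 50 bp, the multi-copy share was 28.1% and 26.5%. At least 50% of the 50 bp around the summit was soft-masked as repeat for 32.9% and 29.9% of members, above the 10.7% of exon bases and below the 62.6% and 57.2% of all peaks. How the aligner placed reads with several equal matches is not given in the sources used here, so which of the copies was open cannot be told for multi-copy members.

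Chromosome 14 held 139 members in replicate 1 (37.2%) and 134 in replicate 2 (32.6%), with 4.17% of the exon bases under the rule. Of all peaks, 16.6% and 14.8% were on this chromosome. Its exons carried 84.0 and 80.9 members per Mb, while no other chromosome exceeded 12.2 or 14.2, and the lowest had 0 and 1.35. Of its members, 108 and 100 were multi-copy. Genes known only as predicted models, with names of Gm and a number, held 102 and 92 of them, of which 97 and 88 were multi-copy. These 97 and 88 summits had a median of 17 and 20 copies, and 76 and 71 of them lay in a 3′ UTR. Single-copy members were also denser there, with 18.7 and 20.5 per Mb of exon bases against 0 to 11.4 and 0.676 to 10.1 on the other chromosomes. Single-copy peaks of every class were numerous on this chromosome as well, with 2646 of 18589 in replicate 1 and 2688 of 24262 in replicate 2. Among single-copy members these counts were 31 of 180 and 34 of 216, so the excess was not confined to exons. The copy number of chromosome 14 in this line was not analysed here.

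**Figure D3:**
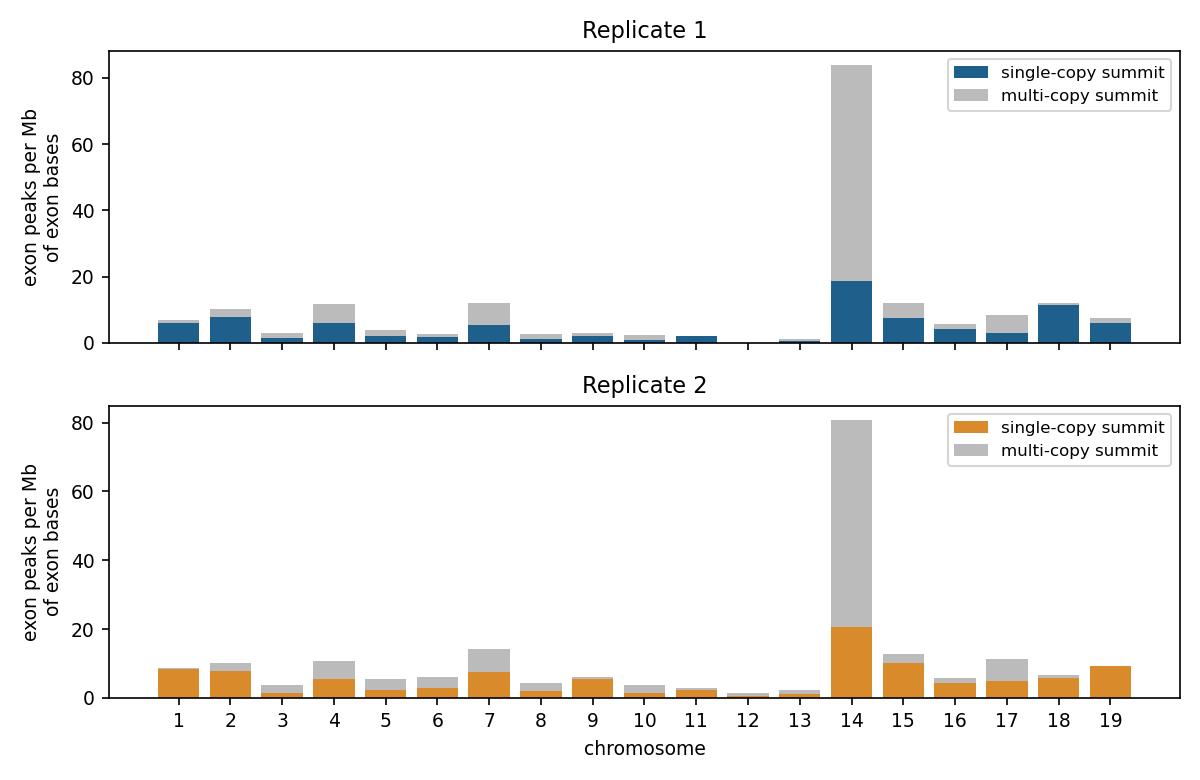
Exon peaks per Mb of exon bases under the rule on each chromosome, split into single-copy and multi-copy summits, in both replicates. Chromosome 14 stood at 84.0 and 80.9 per Mb, most of it multi-copy, and no other chromosome exceeded 14.2.

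Exon peaks met a peak of the other replicate at about the rate of all peaks. An overlap of 1 bp or more with the other list was found for 224 members of replicate 1 (59.9%, against 59.3% of all peaks), and for 215 members of replicate 2 (52.3%, against 51.6%). These shares were near the background, but with chromosome 14 included the copy number classes went in opposite directions. Multi-copy members overlapped in 67.5% and 67.2% of cases, above the 55.3% and 53.0% of all multi-copy peaks. Single-copy members overlapped in 51.7% and 38.9%, below the 66.7% and 49.6% of all single-copy peaks and close to the 51.4% and 39.3% of those in introns. On chromosome 14, 72.7% and 73.1% of members overlapped. Off it, 123 of 235 and 117 of 277 members did, and among the single-copy ones 80 of 149 and 71 of 182. Multi-copy members off chromosome 14 thus did not exceed the shares of all multi-copy peaks. All 30 members of replicate 1 with a −log10 q of at least 10 overlapped a peak of replicate 2, and 87.0% of the 54 of replicate 2 overlapped one of replicate 1. The overlap among all peaks of such a score, and among all peaks on chromosome 14, is not given here. The shares of strong members and of chromosome 14 members therefore cannot be read as particular to exon peaks. Of the members of replicate 1, 174 met a member of replicate 2, 50 met a peak whose own summit was outside the rule, and 150 met none. For replicate 2 these numbers were 174, 41 and 196.

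Stretches where members of both replicates overlapped were counted as loci. There were 168 loci in 157 genes, with 61 in coding sequence, 1 in a 5′ UTR and 106 in 3′ UTR by the summit of replicate 1. Both summits were single-copy in 66 of them, of which 28 lay in coding sequence, 1 in a 5′ UTR and 37 in 3′ UTR. No gene had more than 2 loci, and 11 genes had 2, among them D1Ertd622e with 2 single-copy loci and D10Wsu102e, Gm31371 and Gm3542 with multi-copy ones. Over single-copy loci the −log10 q of the replicates had a Spearman's rho of 0.70, and over all loci 0.48, as a description across loci that share their libraries. Replicate 2 had more tags at 57 of 66 single-copy loci, with a median ratio of 1.33, against 1.07 at multi-copy loci and 1.16 for the backgrounds. A −log10 q of at least 10 in both replicates was reached by 18 loci, of which 14 were single-copy.

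The locus with the highest −log10 q in both replicates was in the last exon of Lars2, which encodes the leucyl-tRNA synthetase of mitochondria. It spanned chr9:123461795-123462193 in replicate 1, in the 3′ UTR of exon 21 of 21, and held 366 tags (95% Poisson interval 329 to 405) there and 465 (424 to 509) in replicate 2. Its −log10 q was 603 and 784, and its summits were 3 bp apart. The summit was 7.2 kb from a GENCODE TSS but 2.22 kb from a RefSeq one. Next came Hjurp, a chaperone of the centromeric histone CENP-A, with 76 tags (59.9 to 95.1) and 126 (105 to 150). The Hjurp peak was 13203 and 13231 bp wide and ran well beyond this exon of 4188 bp, over other exons of Hjurp and into the neighbouring gene Mroh2a. Exons of protein-coding transcripts of any gene, untranslated parts included, covered 54.5% and 54.9% of the peak.

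Both loci of D1Ertd622e lay in the 3′ UTR of 1 annotated exon of 40044 bp. At chr1:97627907-97629095 it had 36 tags (25.2 to 49.8) in replicate 1 and 71 (55.5 to 89.6) in replicate 2. At chr1:97633821-97634352 it had 35 (24.4 to 48.7) and 75 (59.0 to 94.0), and this locus holds the SF1 match printed above. They were 33.4 and 27.4 kb from the nearest TSS in replicate 1, and at both loci the intervals of the replicates did not overlap. Tags here and below were not scaled between replicates, and their median ratio at single-copy loci was 1.33. Whether intervals overlap therefore does not separate a locus from the general offset of replicate 2.

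Vcl, which encodes vinculin of focal adhesions, had the coding locus with the highest mean rank over both replicates, at chr14:21028982-21029594 in exon 19 of 21. It held 35 tags (24.4 to 48.7) in replicate 1 and 64 (49.3 to 81.7) in replicate 2, with 33.3% and 21.2% of the peak in the exon of 204 bp, so most of this peak was intronic. Ankrd16, an ankyrin repeat gene, followed with 31 (21.1 to 44.0) and, above Vcl in replicate 2, 67 (51.9 to 85.1) in its last exon at chr2:11789521-11790199. In unscaled tags, these were the coding loci with the widest gap between replicates among those named here.

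Synpo2l, an actin-associated protein of muscle, had 28 tags (18.6 to 40.5) and 36 (25.2 to 49.8) in its coding exon of 3048 bp, and its summit was 3.42 kb from a GENCODE TSS and 2.22 kb from a RefSeq one in replicate 1. Synpo, a related actin-associated protein of podocytes and dendritic spines, had 19 (11.4 to 29.7) and 32 (21.9 to 45.2). Sptbn4, the βIV spectrin of the axon initial segment, had 25 (16.2 to 36.9) and 30 (20.2 to 42.8), and 20.7% of its peak in replicate 1 was exonic. Unlike those of Vcl and Ankrd16, the intervals of the replicates, again in unscaled tags, overlapped at these 3 loci.

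At the other coding loci named by rank, the zinc finger gene Zfp771 had 23 and 29 tags, Vsig8, an immunoglobulin domain gene, 21 and 29, and Ngly1, which removes N-glycans from misfolded proteins, 20 and 25. Vps13d, a lipid transfer protein, had 18 and 24, and Prrt4 had 21 and 18. The intervals of the replicates overlapped at each of these 5.

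In 3′ UTR, Trappc9, a subunit of a vesicle tethering complex, had 25 tags (16.2 to 36.9) and 48 (35.4 to 63.6) at chr15:72799696-72800229. Bspry had 25 and 45, with its summit in 3′ UTR in replicate 1 and in coding sequence in replicate 2, 60 bp apart. Slc4a3, an anion exchanger and the second locus with a CTCF match, had 23 (14.6 to 34.5) and 49 (36.3 to 64.8). Galnt6, which starts O-linked glycans on proteins, had 19 and 30. Eva1a, a protein of lysosome and endoplasmic reticulum with its SF1 match in coding sequence, was among the weaker loci at 13 and 18 tags. The 1 locus in a 5′ UTR, in the splicing factor gene Sf3b5, had 16 and 31 tags and lay 3.04 kb from a GENCODE TSS but 0.069 kb from a RefSeq one in replicate 1.

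**Figure D4:**
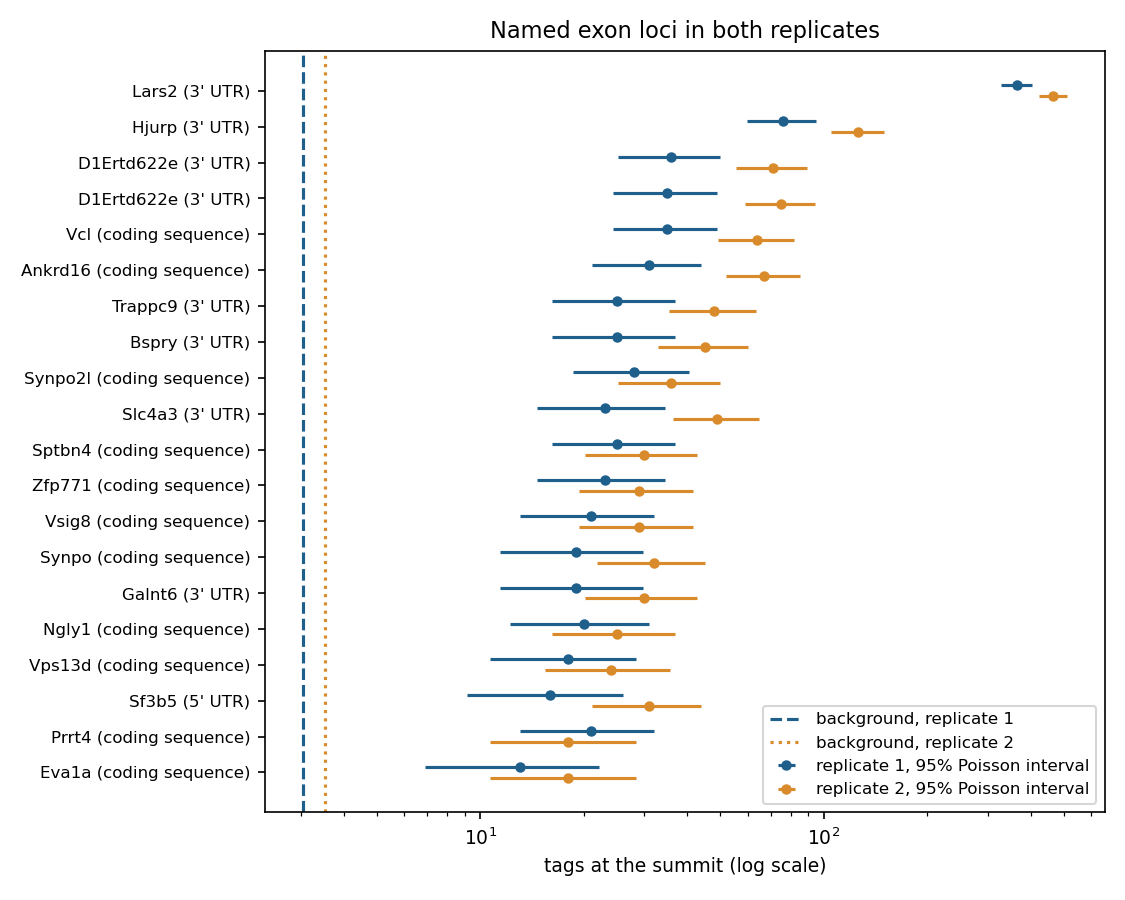
Tags at the summit (log axis, not scaled between replicates) of the named loci in both replicates, with exact 95% Poisson intervals, which cover counting error only. Lines mark the backgrounds of 3.05 and 3.54 tags. Lars2 stood apart at 366 and 465 tags, and replicate 2 was higher at each locus but Prrt4.

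CTCF matches were found within 100 bp of the summit of 7 members of replicate 1 (1.87%, against 0.529% of all peaks) and of 8 members of replicate 2 (1.95%, against 0.782%). Windows of the same length around exon bases held one in 0.142% of cases. Among single-copy members the share was 3.33% and 3.70%, compared with 1.47% and 2.29% of single-copy peaks outside coding genes. It was 1.43% and 1.79% in introns and 0.953% and 1.24% within 3 kb of a TSS. Besides Synpo2l and Slc4a3, the matching members included Ppp1r9b, Tnfrsf1b and Soga1 in replicate 1 and Dst, Lrrk1 and Siae in replicate 2. The single-copy exon shares rest on 6 and 8 peaks.

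SF1 matches were found at 20 members of replicate 1 (5.35%, against 1.43% of all peaks) and at 19 of replicate 2 (4.62%, against 2.10%), and in 1.21% of exon windows. Single-copy members had a share of 10.0% and 7.41%, against 3.36% and 4.47% of all single-copy peaks. Among single-copy peaks it was 2.13% and 2.46% within 3 kb of a TSS and 3.63% and 5.30% outside coding genes. Introns, at 5.34% and 8.03%, were below exons in replicate 1 and above them in replicate 2, so the SF1 share did not set exons apart from introns. It was present in coding sequence as well, with 11.2% and 8.70% of single-copy coding members.

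**Figure D5:**
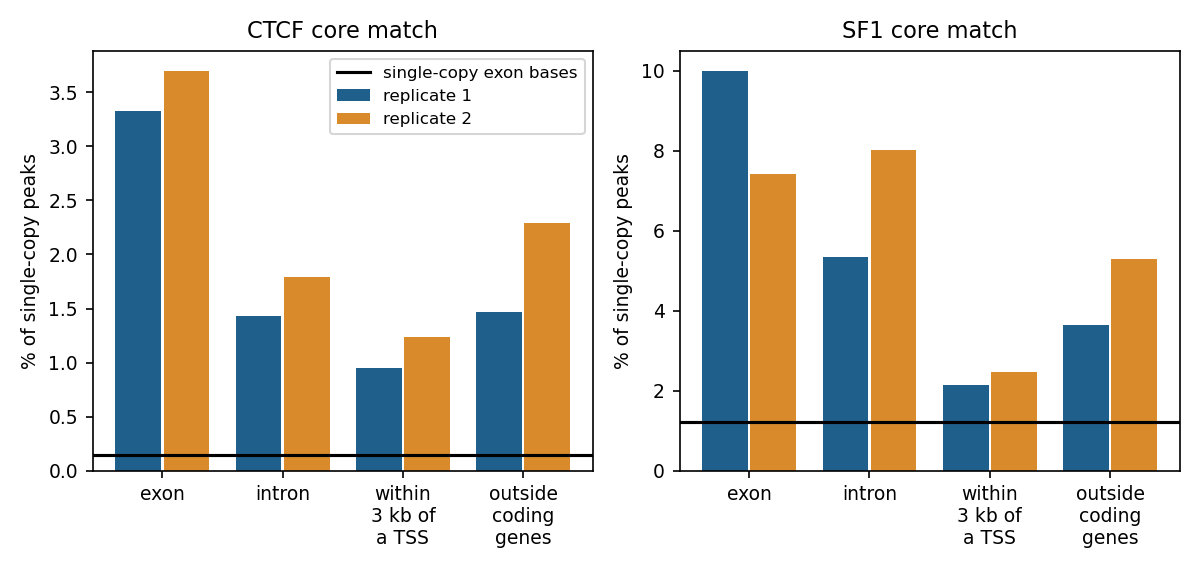
Share of single-copy peaks with a CTCF (left) or SF1 (right) core match within 100 bp of the summit, by annotation class and replicate, with a line for single-copy exon bases. Exon peaks had the highest CTCF shares, 3.33% and 3.70%, but these rest on 6 and 8 peaks. For SF1 they exceeded introns in replicate 1 and not in replicate 2.

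The other factors searched were EGR1 (GCGTGGGCG) and SP1 (GGGCGG), zinc finger proteins of promoters, and AP1 (TGACTCA) and CRE (TGACGTCA), which bind the FOS and JUN and the CREB families. All were searched on both strands, and an EGR1 core followed by G also contains the SP1 core. EGR1 matched 1 member in each replicate, in Sptbn4, or 0.267% and 0.243%, against 0.0322% of exon windows and 0.132% and 0.181% of all peaks. SP1 matched 3.74% and 5.84% of members, against 3.53% of exon windows, 10.1% and 12.5% of all peaks, and 27.7% and 32.0% of peaks within 3 kb of a TSS. AP1 matched 2.41% and 2.43% of members, against 2.90% of exon windows and 2.15% and 2.36% of all peaks. Among single-copy members it matched 5.00% and 4.17%, above the 2.94% of single-copy exon windows, and all single-copy peaks had 4.01% and 4.28%. CRE matched 0 and 2 members, or 0% and 0.487%, against 0.561% and 0.694% of all peaks. GC content was higher at single-copy coding summits than over coding bases, with medians of 53.5% and 54.0% against 49.5%, and 15.7% and 20% of these summits were CpG-rich (GC above 50% and an observed to expected CpG ratio above 0.6), against 5.91% of single-copy coding bases and 27.9% and 32.1% of all single-copy peaks.

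No member lay in any of 20 genes of gonadotrope hormones, receptors, transcription factors and secretory granules, which hold 0.0767% of the exon bases under the rule. Of 108 genes that GnRH induced in RNA-seq of the study, 71 are coding genes on these chromosomes, and 3 had members. The list held 0.247% of the exon bases and 1.07% and 0.73% of the members. Gm3248 and Gm3558, on chromosome 14, had 4 multi-copy members in replicate 1, and Gm3248 had 2 in replicate 2. Maff, a small MAF transcription factor, had 1 single-copy member, in replicate 2 alone, at chr15:79357495-79357797 with 25 tags (16.2 to 36.9). This was in its last coding exon, 9.32 kb from a TSS, and no peak of replicate 1 overlapped it.

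In gene families with many near-identical genes, most members were multi-copy. Predicted Gm genes held 115 members in replicate 1 (30.7%) and 113 in replicate 2 (27.5%), with 1.70% of the exon bases, and 110 and 104 of these were multi-copy. Vomeronasal receptor genes, which detect pheromones, held 18 and 11 members (4.81% and 2.68%, with 2.30% of the exon bases), of which 15 and 11 were multi-copy. Olfactory receptor genes held 6 and 5 (1.60% and 1.22%, with 1.67% of the bases), and zinc finger genes of the C2H2 class 21 and 20, or 5.61% and 4.87% of members with 3.60% of the exon bases. Homeobox genes of 6 families, Lhx, Pitx, Nkx, Dlx and Pax among them, hold 0.17% of the exon bases and had no member in replicate 1 and 3 single-copy ones in replicate 2 (0.73%), in Six4, Six3 and Nkx2-2 with 17, 15 and 20 tags. The Nkx2-2 peak overlapped a peak of replicate 1. No member lay in a clustered protocadherin gene or a Hox cluster gene, which hold 0.0561% and 0.0164% of the exon bases.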

How the data were processed

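The submitters' processing notes name Bowtie2 and MACS2 and the build GRCm38. The authors deposited 1 peak list for each replicate, called without pooling, in which each peak has a score, a fold (the ratio of summit to background) and −log10 values of p and q. The methods name duplicate removal and a fly genome size setting, and no input control.

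The rest was computed in Python (version 3.11.15) with the packages scipy 1.17.1, numba 0.67.0, numpy 2.4.6, pandas 2.3.3 and, for figures, matplotlib 3.10.9. Coordinates are 1-based on GRCm38. Where transcripts differed, coding sequence came before 5′ UTR and 3′ UTR. Exon bases under the rule were sampled at every 100th base. Tags recomputed the deposited −log10 p to within 1.95e-04. Functions were tested on simulated data.

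The members, lists and motifs were chosen with earlier results of these data known. Named were the 5 loci ranked highest by −log10 q on average over both replicates, the highest single-copy loci (up to 10 coding, 6 in 3′ UTR and 4 in 5′ UTR, where only 1 was found), genes with the most loci, members in the listed genes, up to 8 single-copy CTCF loci, and the members nearest the 3 kb distance. SF1 loci, D10Wsu102e, Gm31371, Gm3542 and other CTCF, EGR1 and homeobox members were named after their values were seen. Where genes tied, not all are named. The induced genes came from the RNA-seq of the study, which used another treatment schedule. With n = 2 and 1 condition, values are given without tests, and intervals cover counting error only. Alternatives concerned the TSS distance, annotation, q, copy number, overlap, window, chromosome 14 and each replicate. Read coverage and chromosomes X and Y were not analysed here.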

Additional observations from a re-analysis of the deposited data

How the results depend on the processing

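The number of exon peaks, a mean of 392.5, stayed within 1.5 times under 6 other definitions (from 313.5 to 558), and was 135.5 at a −log10 q of at least 5, 42 at 10 or more, 198 for single-copy summits and 256 without chromosome 14, an alternative chosen after seeing the data, like every alternative for SF1. The ratio of peak share to base share, 0.423, was 0.446 beyond 1 kb, 0.437 beyond 5 kb, 0.287 at a −log10 q of at least 10, 0.525 for single-copy summits and 0.323 without chromosome 14. It stayed under 1 throughout. The coding share, 42.9%, was 47.9% with RefSeq, 41.4% with 3′ UTR given priority, 52.8% at a −log10 q of at least 10, 51.3% for single-copy summits and 51.0% without chromosome 14. The share overlapping the other replicate, 56.1%, was 28.5% with an overlap of 50% of both peaks, 26.1% for summits within 100 bp, 93.5% at a −log10 q of at least 10, 45.3% for single-copy summits and 47.3% without chromosome 14. The multi-copy share, 49.7%, was 27.3% with 200 bp, 54.0% and 37.0% at a −log10 q of at least 5 and 10, and 35.4% without chromosome 14. The CTCF share, 1.91%, was 1.53% within 50 bp, 2.54% within 250 bp, 5.19% at a −log10 q of at least 10, 3.52% for single-copy summits and 2.33% without chromosome 14. The SF1 share, 4.99%, was 8.89%, 8.70% and 7.47% under the last 3. Moved values differed from the main ones by more than 1 SD of the 2 replicates, an SD that is itself imprecise, and the cause was not tested.

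Leaving out either replicate gave 374 to 411 peaks, a ratio of 0.419 to 0.426, a coding share of 42.5% to 43.3%, an overlap of 52.3% to 59.9%, a multi-copy share of 47.4% to 51.9%, and CTCF and SF1 shares of 1.87% to 1.95% and 4.62% to 5.35%. No paired analysis was possible because there was 1 condition. The lists give no read totals, and members near the threshold rest on 10 or 11 tags.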

Other observations

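At a −log10 q of at least 10, 7 members of replicate 2, all single-copy, overlapped no peak of replicate 1, and some are named here after their values were seen. Among them were the 3′ UTR of Cyp4f16, a cytochrome P450 gene, with 31 tags, a coding exon of Fer1l6 with 29 tags at 175 bp from a RefSeq TSS, the 3′ UTR of Pip5kl1 with 25 tags, and a coding exon of Zbtb40, a zinc finger gene, with 24 tags. Replicate 1 had no such member, and the overlap among all peaks of such a score is not given here. Keratin and collagen genes, with 0.104% and 0.483% of the exon bases, each had 1 member, both single-copy and in coding sequence of replicate 2, in Krt71 with 24 tags and in Col15a1 with 16. The Krt71 peak overlapped a peak of replicate 1 and the Col15a1 peak did not.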
